A study of Homo sapiens with 2 samples.

Results

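The genes described here were the 72 members of the voltage-gated sodium channel, voltage-gated calcium channel, TRP channel and CLC chloride channel families that the expression table lists under symbols beginning SCN, CACNA, CACNB, CACNG, TRPA, TRPC, TRPM, TRPV and CLCN. They were chosen by symbol alone, with hyphenated names such as antisense RNAs left out, from 59429 distinct symbols in 62573 rows. A row here is 1 line of the table, which can hold several overlapping genes, and where a symbol had more than 1 row, the row of highest summed FPKM was used. Of the 72 genes, 14 were sodium channel genes, 26 were calcium channel genes, 22 were TRP channel genes and 10 were CLC genes, among them the pseudogene CLCN3P1.

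Gene expression was measured by poly A selected, strand-specific RNA-seq in SK-N-AS, a human neuroblastoma cell line without MYCN amplification. AS WT was the unedited parental line, and AS STRAP KO was a single clone, grown from 1 sorted cell, in which CRISPR-Cas9 had been used to disrupt STRAP, the gene of serine-threonine kinase receptor-associated protein. Neither condition is given a treatment in the sample labels. There was 1 library per condition, so the comparison asks which channel transcripts differed between these 2 libraries, no difference below has a replicate check, and the effect of losing STRAP cannot be told apart from that of growing a clone from a single cell.

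Voltage-gated sodium channels open on depolarisation and carry the upstroke of the action potential, and voltage-gated calcium channels turn the same depolarisation into calcium entry. Both consist of a large pore subunit with smaller auxiliary subunits that control its gating and its delivery to the membrane. TRP channels are cation channels that respond to chemicals, temperature, osmotic stress or lipids rather than mainly to voltage. The CLC family contains chloride channels of the plasma membrane and chloride-proton exchangers of endosomes and lysosomes. Neuroblastoma arises from the sympathoadrenal lineage of the neural crest, whose neurons are electrically excitable.

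The upstream bases of 3 genes, 1 each from the calcium, sodium and TRP channel families, are printed. These genes reached 1 FPKM, differed by at least 2-fold and were alone in their row. They also had at least 150 bases of RefSeq upstream sequence free of annotated exons, and they were not chosen by the size of the difference. In all, 47 of the 72 genes had a promoter entry. The sequences are from RefSeq on GRCh38.p14, read 5′ to 3′ on the strand of the gene. Those of CACNG6 and TRPM2 end next to the RefSeq start. That of SCN9A ends earlier, next to the first annotated exon before that start. Capitals mark the GC box, GGGCGG on either strand, the motif read by the SP1 family of transcription factors.
CACNG6, chr19:53991387-53991636, plus strand: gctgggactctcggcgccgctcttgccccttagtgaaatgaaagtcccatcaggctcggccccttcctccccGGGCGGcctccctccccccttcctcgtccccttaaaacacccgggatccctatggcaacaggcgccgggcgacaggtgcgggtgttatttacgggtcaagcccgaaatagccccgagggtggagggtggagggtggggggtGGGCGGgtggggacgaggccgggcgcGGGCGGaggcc
SCN9A, chr2:166376002-166376194, minus strand: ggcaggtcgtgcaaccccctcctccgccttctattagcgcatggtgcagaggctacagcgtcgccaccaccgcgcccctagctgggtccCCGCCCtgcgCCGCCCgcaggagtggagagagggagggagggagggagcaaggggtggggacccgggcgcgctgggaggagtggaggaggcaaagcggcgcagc
TRPM2, chr21:44349891-44350140, plus strand: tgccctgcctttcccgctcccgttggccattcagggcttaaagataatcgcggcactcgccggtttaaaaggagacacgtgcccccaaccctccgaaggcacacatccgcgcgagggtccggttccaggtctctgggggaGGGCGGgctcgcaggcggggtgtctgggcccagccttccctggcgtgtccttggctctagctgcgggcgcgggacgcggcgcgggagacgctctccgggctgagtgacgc
The CACNG6 stretch of 250 bases held 3 GC boxes, 21 CpG dinucleotides and 69.2% G or C. The TRPM2 stretch of the same length held 1 GC box, 26 CpG dinucleotides and 68.4% G or C. In the SCN9A stretch of 193 bases there were 2 GC boxes, 16 CpG dinucleotides and 72.0% G or C. A GC box was found in 42.6% of 35116 RefSeq upstream windows of 250 bases and in 33.6% of those cut to 193 bases, and at least as many CpG dinucleotides were present in 30.2% of windows for CACNG6, 19.6% for TRPM2 and 27.96% for SCN9A. Neither TATAAA nor CCAAT was found on either strand of these stretches. The 3 stretches were therefore all CpG-rich, although SCN9A was lower in AS STRAP KO while CACNG6 and TRPM2 were higher. These matches are descriptions of the letters and do not show that a factor binds there.

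Levels are given as FPKM, the read number scaled to transcript length and to library size, so that genes can be compared per length. A gene at 1 FPKM corresponded to an estimated 26.3 reads per kb of transcript in AS WT and 26.7 in AS STRAP KO. Read numbers below are estimates from this relation, and intervals of folds are 95% intervals for counting error only. Both take the canonical transcript length of each gene and would differ where isoforms of another length are expressed. Across the 13527 rows that reached 1 FPKM in either library, log2(FPKM + 1) correlated between AS WT and AS STRAP KO with a Pearson's r of 0.93, over rows that are not independent replicates. STRAP mRNA was at 244 FPKM in AS WT against 179 FPKM in AS STRAP KO (log2 ratio -0.45). These are mRNA levels and do not measure the protein. The paper reported a sequence gap at the guide position and no detectable STRAP protein on immunoblots of the knockout cells. An exact 0 in the table can be a failed estimate, since RPS18, a ribosomal protein gene that every cell uses, was at 0 in both libraries in each of its 7 rows. Among protein-coding symbols with several rows, 834 of 1193 (69.9%) were at 0 in both libraries, against 2789 of 17774 (15.7%) with 1 row. The corresponding numbers for the channel genes were 6 of 8 and 9 of 64. Genes at 0 are therefore called listed at 0, without a fold.

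Neuroblastoma cells occur in adrenergic and mesenchymal states, and markers of both were present. Of 12 adrenergic markers, 8 reached 1 FPKM, with a summed level of 682 FPKM in AS WT against 742 FPKM in AS STRAP KO, but the catecholamine enzyme gene DBH was under 0.1 FPKM and TH and CHGA were listed at 0 in both libraries. Of these markers, 3 had at most 0.5 of their AS WT level in AS STRAP KO, PHOX2A and ISL1 among them. All 12 mesenchymal markers reached 1 FPKM, with a summed level of 1995 FPKM in AS WT against 1423 FPKM in AS STRAP KO. Of these, 2 were at least 2-fold higher in AS STRAP KO (PRRX1 and RUNX2) and 1 was lower (IFI16), and most of the sum was VIM, at 1368 and 896 FPKM. The Schwann cell markers SOX10, S100B and CDH19 were listed at 0 in both libraries, and 3 of 8 Schwann cell markers reached 1 FPKM, of which ERBB3 shares its row with PA2G4. Of 8 muscle markers 1 reached 1 FPKM, with summed levels of 2.73 and 2.15 FPKM. Of 6 epithelial markers 3 did, with summed levels of 812 and 862 FPKM. Most of these sums were KRT8, at 518 and 554 FPKM, and KRT18, at 283 and 268 FPKM. CLDN4 was higher in AS STRAP KO, at 10.1 and 38.2 FPKM. EPCAM and KRT19 were under 1 FPKM, and CDH1 was listed at 0 in both libraries. Whether these marker differences had a part in the channel results was not tested, and in bulk RNA fewer cells of a type and less RNA per cell cannot be told apart.

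Of the 72 channel genes, 29 reached 1 FPKM in at least 1 library, 28 lay between 0 and 1 FPKM, and 15 were listed at 0 in both libraries. Among the 29 genes, 6 (20.7%) were lower in AS STRAP KO by at least 2-fold, beside 10.6% of all 13527 rows. A further 7 (24.1%) were at least 2-fold higher, beside 8.31% of all rows. The median log2 ratio was -0.10 for these genes and 0.00 for all rows. Genes that pass this filter in only 1 library had to differ, so these counts describe the genes and do not set them apart from the rest of the transcriptome. The background also depended on level. Between 1 and 5 FPKM in the higher library, 5 of 13 channel genes (38.5%) were lower and 4 (30.8%) were higher, where 21.6% and 15.3% of all rows were. From 5 FPKM upward, 1 of 16 (6.25%) was lower, where 6.51% of all rows were, and 3 of 16 (18.8%) were higher, where 5.72% of all rows were. With at least 1 FPKM required in both libraries, 19 channel genes remained, of which 1 was lower and 3 were higher, beside 5.74% and 4.87% of 11846 rows.

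**Figure D1:**
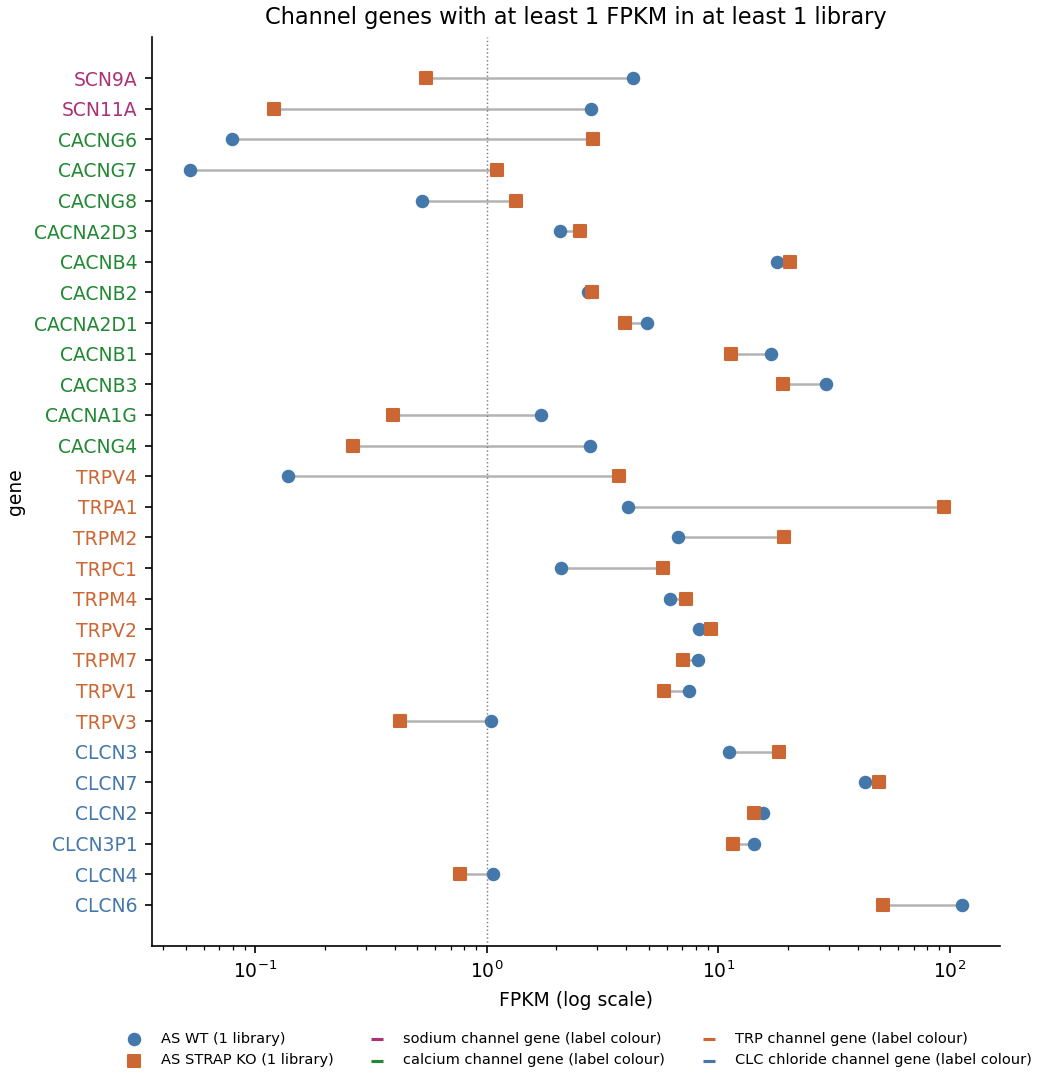
FPKM of 28 channel genes that reached 1 FPKM in either library, on a log axis, with 1 circle for the AS WT library, 1 square for the AS STRAP KO library and a line joining them. The dotted line marks 1 FPKM. The longest lines belong to SCN9A and SCN11A among the sodium channel genes, CACNG4, CACNG6 and CACNG7 among the calcium channel genes, and TRPV4 and TRPA1 among the TRP genes, whereas the CLC genes lie close together except CLCN6.

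**Figure D2:**
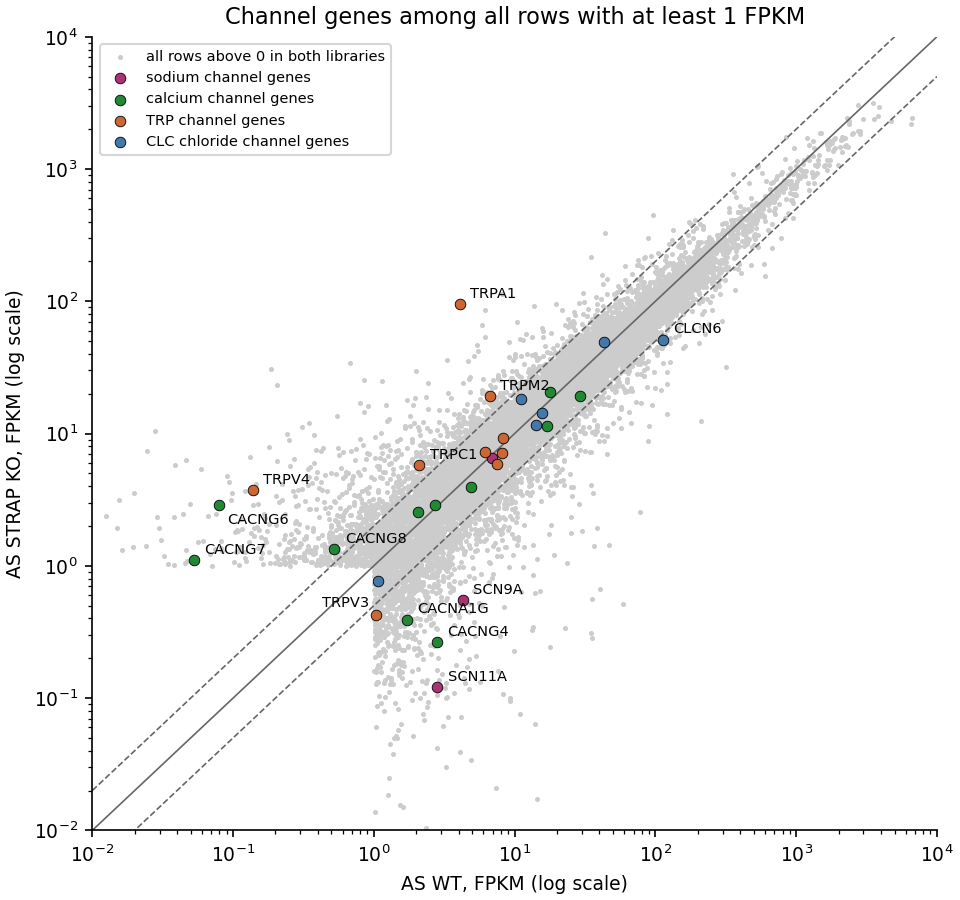
FPKM in AS STRAP KO against FPKM in AS WT on log axes, for rows that reached 1 FPKM in either library and were above 0 in both (grey) and for the 29 channel genes (coloured by family). The solid line marks equal values and the dashed lines 2-fold differences, and the 13 named genes lie outside them, 6 below and 7 above.

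Pore subunits of sodium channels were lower in AS STRAP KO through 2 genes. SCN9A, which encodes a channel of sensory and sympathetic neurons, was at 4.27 FPKM in AS WT against 0.547 FPKM in AS STRAP KO. Located on the minus strand at chr2:166195185-166376001, SCN9A was 7.81-fold lower, with a counting interval of 6.56 to 9.42 from an estimated 1072 and 139 reads. SCN11A, the gene of a tetrodotoxin-resistant channel of pain-sensing neurons, was at 2.83 FPKM in AS WT against 0.120 FPKM in AS STRAP KO. This gene, on the minus strand at chr3:38845764-39052157, was 23.5-fold lower, with a counting interval of 15.3 to 38.6 from an estimated 489 and 21.2 reads. Both were therefore above 1 FPKM in AS WT alone. Of 3523 rows between 1 and 5 FPKM that were above 0 in both libraries, 39 had a lower ratio than SCN11A and 113 had a lower ratio than SCN9A.

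Differences of this size were not seen in SCN2A and SCN8A. SCN2A, the gene of a channel of brain axons, was at 0.976 and 0.856 FPKM in AS WT and AS STRAP KO, and a second row of this symbol was listed at 0. SCN8A, which encodes the main channel of nodes of Ranvier, was at 0.320 and 0.360 FPKM. SCN2A and SCN9A, which lie in the same cluster on chromosome 2, thus differed in unequal measure. SCN1A, SCN3A, SCN4A, SCN7A and SCN10A were all under 0.1 FPKM in both libraries. Summed over the 10 pore subunit genes, the level was 8.77 FPKM in AS WT against 2.78 FPKM in AS STRAP KO, 3.15-fold lower.

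Among the beta subunits, which modulate gating and bind neighbouring cells, SCN4B was at 0.101 and 0.269 FPKM, from an estimated 11.4 and 30.8 reads. SCN3B was under 0.1 FPKM in both libraries, and SCN2B was listed at 0 in both of its rows.

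Pore subunits of calcium channels were expressed at low levels throughout, with a sum of 1.83 FPKM in AS WT against 0.940 FPKM in AS STRAP KO. CACNA1G, the gene of a T-type channel that opens at negative voltages, was at 1.71 FPKM in AS WT against 0.392 FPKM in AS STRAP KO. It lies on the plus strand at chr17:50560715-50627474 and was 4.38-fold lower, with a counting interval of 3.45 to 5.57. CACNA1G was the only pore gene to reach 1 FPKM, and with 1 FPKM added to both values it was within 2-fold.

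Some pore genes at lower levels had higher values in AS STRAP KO. CACNA1I, also a T-type channel gene, was at 0.0471 and 0.228 FPKM, from an estimated 12.1 and 59.5 reads. CACNA1A, the gene of the P/Q-type channel of nerve terminals, was at 0.0121 and 0.113 FPKM, from an estimated 2.69 and 25.4 reads. CACNA1F, known from photoreceptors, was at 0.00712 and 0.108 FPKM, from an estimated 1.08 and 16.7 reads. These values were at most 0.228 FPKM, below the 1.71 FPKM of CACNA1G in AS WT. CACNA1B, CACNA1D, CACNA1H and CACNA1S were under 0.1 FPKM in both libraries, and CACNA1C, with 2 rows, and CACNA1E were listed at 0.

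The auxiliary alpha2delta and beta subunits that reached 1 FPKM, by contrast, were within 2-fold. The beta subunits are cytoplasmic proteins that bring the pore to the membrane. CACNB3 was at 29.2 FPKM in AS WT against 19.1 FPKM in AS STRAP KO, with a log2 ratio of -0.61. CACNB1 was at 17.0 and 11.3 FPKM, a log2 ratio of -0.58. The row of CACNB4, which also holds other overlapping genes, was at 17.9 and 20.5 FPKM, so its value cannot be assigned to CACNB4 alone. CACNB2 was at 2.73 and 2.86 FPKM.

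The 4 beta subunit genes together came to 66.8 FPKM in AS WT against 53.7 FPKM in AS STRAP KO, far above the summed pore genes in both libraries. The alpha2delta subunits are extracellular proteins that raise the number of channels at the surface. CACNA2D1, the binding site of gabapentin, was at 4.92 and 3.94 FPKM. CACNA2D3 was at 2.07 and 2.53 FPKM, CACNA2D2 was at 0.0327 and 0.0161 FPKM, and CACNA2D4 was listed at 0 in both of its rows. Neither alpha2delta gene that reached 1 FPKM differed by more than 0.32 on the log2 scale.

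The CACNG genes encode the gamma subunits and the TARPs, transmembrane proteins that carry AMPA-type glutamate receptors to the synapse, and 4 of the 8 reached 1 FPKM, all of them beyond 2-fold. CACNG4, a TARP gene on the plus strand at chr17:66964707-67033398, was at 2.80 FPKM in AS WT against 0.266 FPKM in AS STRAP KO. Its level was 10.5-fold lower, with a counting interval of 6.92 to 16.8. The other 3 were higher in AS STRAP KO and lie next to each other on the plus strand of chromosome 19. CACNG7, a TARP gene at chr19:53909278-53943950, was at 0.0525 FPKM in AS WT against 1.11 FPKM in AS STRAP KO, from an estimated 3.52 and 75.5 reads, with a counting interval of its 21.1-fold difference of 6.92 to 69.5. CACNG8, a TARP gene at chr19:53962937-53990215, was at 0.525 and 1.33 FPKM, 2.54-fold higher with an interval of 2.06 to 3.18. CACNG6, the gene of a gamma subunit related to that of skeletal muscle, at chr19:53991637-54012666, was at 0.0796 and 2.86 FPKM, from an estimated 4.81 and 176 reads, and 36.0-fold higher with an interval of 14.6 to 108.

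The neighbours of these 3 genes were not higher in AS STRAP KO. Within 250 kb of CACNG6, 4 other rows reached 1 FPKM and 0 of them were beyond 2-fold. MYADM was at 46.0 FPKM in AS WT against 34.3 FPKM in AS STRAP KO. NDUFA3 was at 4.54 and 3.39 FPKM, and CNOT3 was at 3.05 and 2.53 FPKM. RPS9 was at 19.3 and 18.6 FPKM. The higher values thus lay in the 3 adjacent CACNG genes and not in the rows of at least 1 FPKM around them. CACNG1, CACNG2, CACNG3 and CACNG5 were listed at 0 in both libraries. With 1 FPKM added to both values, CACNG8 was within 2-fold.

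**Figure D3:**
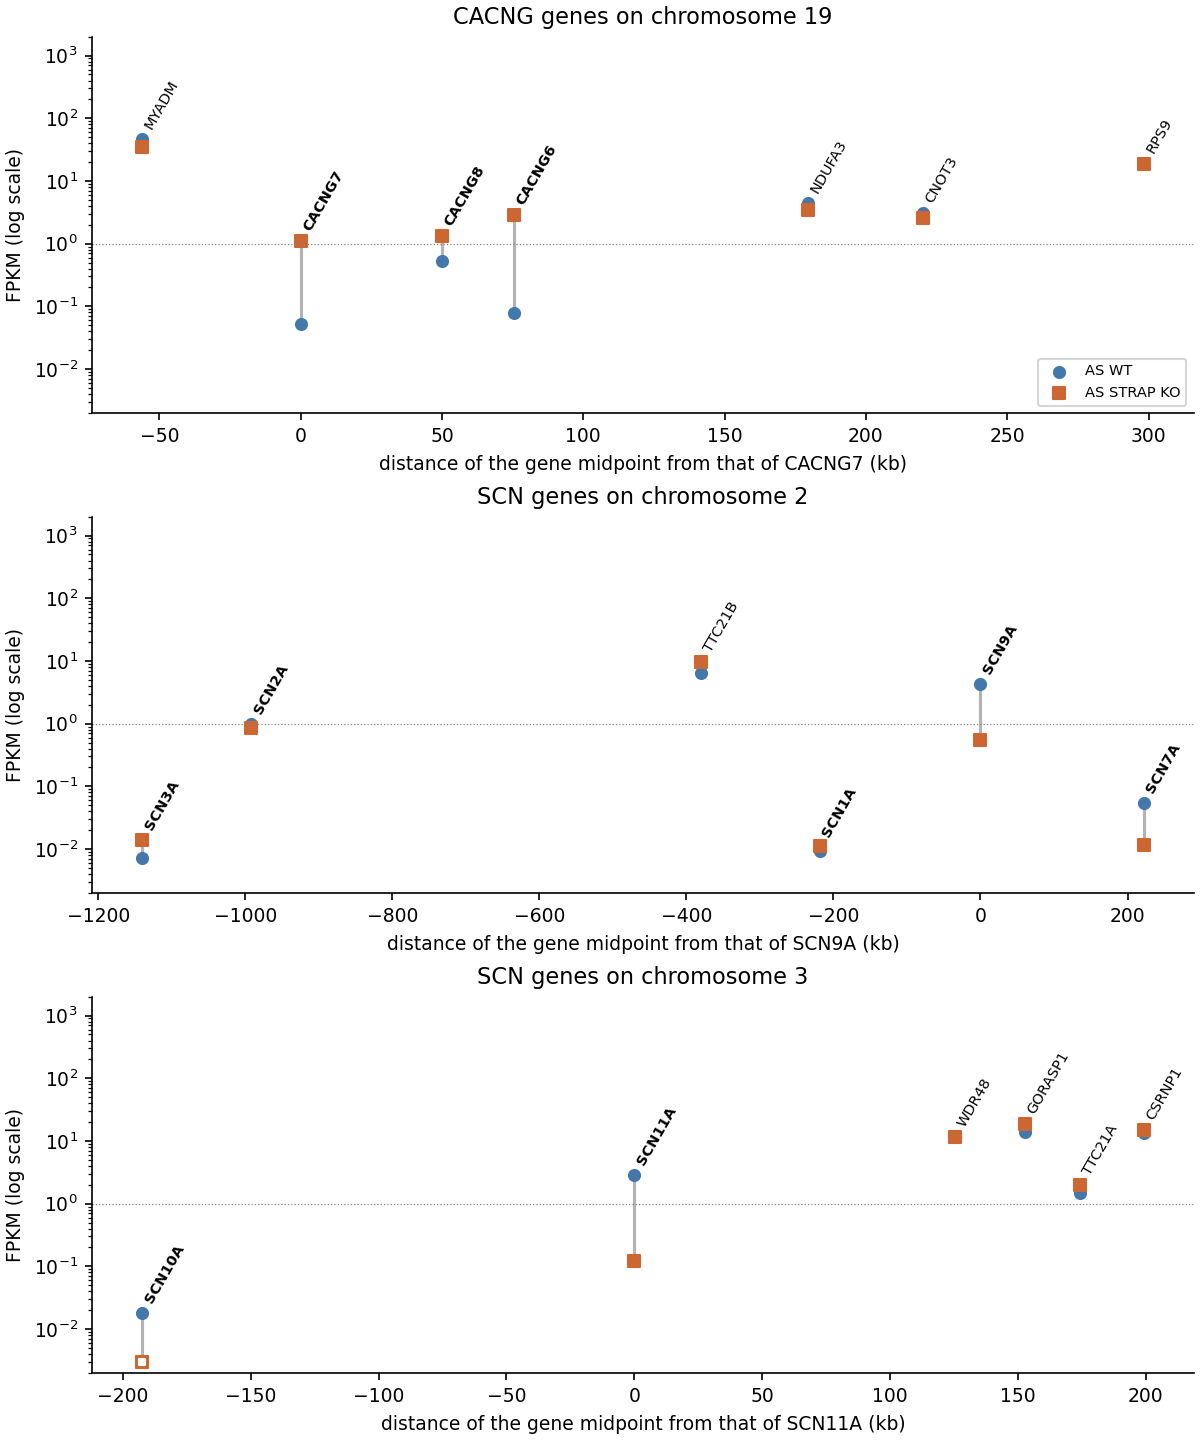
FPKM on a log axis against the distance of each gene's midpoint from that of CACNG7, SCN9A or SCN11A in kb, for the channel genes (bold) and the neighbouring rows with at least 1 FPKM. Circles are AS WT and squares AS STRAP KO, an open square is a value listed at 0 drawn at the lower edge, and the dotted line marks 1 FPKM. CACNG6, CACNG7 and CACNG8 are higher in AS STRAP KO between neighbours with near-equal values, and SCN9A and SCN11A are lower.

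TRP channel genes had the largest difference in level of all channel genes. TRPA1, the gene of the receptor of mustard oil and other irritants in sensory neurons, was at 4.07 FPKM in AS WT against 94.8 FPKM in AS STRAP KO, from an estimated 533 and 12619 reads. It lies on the minus strand at chr8:72019917-72075584 and was 23.3-fold higher, with a counting interval of 21.4 to 25.5. Of 9725 rows with at least 5 FPKM that were above 0 in both libraries, 19 had a higher ratio. In AS STRAP KO it was the most abundant of the 72 genes. Within 250 kb, 2 other rows reached 1 FPKM, of which MSC, a transcription factor gene, was at 18.2 and 57.2 FPKM, while MSC-AS1, which overlaps TRPA1 on the opposite strand, was at 3.81 and 6.08 FPKM.

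TRPV4, the gene of a channel opened by osmotic swelling and warmth, was at 0.138 FPKM in AS WT against 3.73 FPKM in AS STRAP KO. It lies on the minus strand at chr12:109783087-109833406 and was 26.9-fold higher, with a counting interval of 14.8 to 54.6 from an estimated 11 and 301 reads. Its neighbours were mixed, with FAM222A at 0.993 and 2.74 FPKM, GLTP at 8.90 and 7.85 FPKM and MMAB at 27.5 and 12.0 FPKM.

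The other TRPV genes were not higher to this extent. TRPV2 was at 8.28 and 9.32 FPKM. TRPV1, the capsaicin receptor, was at 7.49 and 5.84 FPKM in a row shared with SHPK and a further overlapping gene. TRPV3, a warmth-activated channel of keratinocytes, was at 1.04 FPKM in AS WT against 0.422 FPKM in AS STRAP KO, with a log2 ratio of -1.30, in a row shared with SPATA22. TRPV3 was within 2-fold with 1 FPKM added to both values. TRPV5 and TRPV6, calcium-selective channels of kidney and gut, were listed at 0 in each of their rows. The summed TRPV level was 17.0 FPKM in AS WT against 19.3 FPKM in AS STRAP KO. It joined higher values of TRPV2 and TRPV4 with lower values of the TRPV1 and TRPV3 rows. Those 2 rows are shared, so their values cannot be assigned to TRPV1 or TRPV3 alone.

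Of the TRPM genes, TRPM2, whose channel opens on oxidative stress through ADP-ribose, was at 6.68 FPKM in AS WT against 19.2 FPKM in AS STRAP KO. The gene, on the plus strand at chr21:44350163-44443081, was 2.88-fold higher, with a counting interval of 2.67 to 3.11. TRPM2-AS, on the opposite strand within it, was at 1.00 and 2.61 FPKM. TRPM2 was the sole TRPM gene of at least 1 FPKM beyond 2-fold. TRPM7, a channel joined to a protein kinase, was at 8.18 and 7.08 FPKM. TRPM4, a channel opened by intracellular calcium that passes sodium and potassium, was at 6.21 and 7.27 FPKM.

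TRPM genes under 1 FPKM included 2 with lower values in AS STRAP KO, of which that of TRPM3 was a 0 that can be a failed estimate. TRPM8, the menthol and cold receptor, was at 0.346 FPKM in AS WT against 0.0726 FPKM in AS STRAP KO. TRPM3, a heat-activated channel, was at 0.757 FPKM in AS WT, from an estimated 241 reads, and listed at 0 in AS STRAP KO. The irritant receptor gene TRPA1 and the cold receptor gene TRPM8, both of sensory neurons, therefore differed in opposite directions. TRPM1, TRPM5 and TRPM6 were under 0.1 FPKM in both libraries.

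Of the 7 TRPC genes, which are coupled to phospholipase C, TRPC1 was at 2.10 FPKM in AS WT against 5.75 FPKM in AS STRAP KO. Located at chr3:142724034-142807888 on the plus strand, TRPC1 was 2.74-fold higher, with a counting interval of 2.36 to 3.19. PCOLCE2, near TRPC1, was in contrast lower, at 20.3 and 8.29 FPKM. TRPC2, a pseudogene in humans, and TRPC4, TRPC5, TRPC6 and TRPC7 were listed at 0 in both libraries.

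CLC genes held the highest AS WT level. CLCN6, the gene of a late endosomal chloride-proton exchanger of neurons, was at 112 FPKM in AS WT against 51.3 FPKM in AS STRAP KO. It lies on the plus strand at chr1:11806096-11848079 and was 2.19-fold lower, with a counting interval of 2.13 to 2.26. It was the only channel gene from 5 FPKM upward that was at least 2-fold lower, and 452 of 9725 rows at that level had a lower ratio.

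The other exchangers of endosomes and lysosomes that reached 1 FPKM were within 2-fold. CLCN7, the lysosomal exchanger required by osteoclasts, was at 43.2 and 49.3 FPKM. CLCN3, an endosomal exchanger, was at 11.1 and 18.3 FPKM, a log2 ratio of 0.71. CLCN4 was at 1.07 and 0.767 FPKM. CLCN5, known from endosomes of the kidney proximal tubule, was below 1 FPKM. Like CLCN6 it was lower, at 0.683 FPKM in AS WT against 0.256 FPKM in AS STRAP KO, a 2.67-fold difference. The 5 exchanger genes together came to 169 FPKM in AS WT against 119.9 FPKM in AS STRAP KO, while without CLCN6 the sums were 56.1 and 68.7 FPKM, so the direction of the sum was set by CLCN6.

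CLCN2, a chloride channel of the plasma membrane, was at 15.6 and 14.3 FPKM. CLCN3P1, a transcribed pseudogene whose reads cannot be told apart from those of its relatives with certainty and whose row also holds LDHAP4, was at 14.3 and 11.6 FPKM. CLCN1, the skeletal muscle channel, was at 0 and 0.0132 FPKM.

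Among the 28 channel genes between 0 and 1 FPKM, 8 were lower by 2-fold or more in AS STRAP KO and 12 were higher by 2-fold or more. Of these 28, 13 reached 0.1 FPKM, of which 3 were lower (CLCN5, TRPM8 and, through a listed 0, TRPM3). A further 7 were higher, SCN4B, CACNA1A, CACNA1F and CACNA1I among them. The other 15 were at most 0.0631 FPKM, a level that can rest on single reads.

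Genes whose products bind, regulate or act beside these channels were described in 7 lists, whose counts stand beside 10.6% lower and 8.31% higher over all 13527 rows and set no list apart from them. Of 13 sodium channel partners with at least 1 FPKM, 3 were at least 2-fold lower and 0 were higher, with a median log2 ratio of -0.07. FGF14, an intracellular factor that binds sodium channels, was at 2.40 FPKM in AS WT against 0.138 FPKM in AS STRAP KO. ANK3, the ankyrin that anchors sodium channels at the axon initial segment, was at 13.3 and 3.63 FPKM, and NFASC, an adhesion protein of the same site, was at 1.18 and 0.129 FPKM. FGF14 and NFASC reached 1 FPKM in AS WT only, and the other 10 partners were within 2-fold.

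Of 11 calcium channel regulators, 1 was lower and 0 were higher, with a median of 0.04. The lower gene was GEM, a small GTPase that inhibits calcium channels through their beta subunits, at 59.9 FPKM in AS WT against 21.7 FPKM in AS STRAP KO. Of 24 genes of calcium release, store entry and calcium pumping, 2 were lower and 3 were higher, with a median of 0.21. RYR1, the calcium release channel of skeletal muscle, was at 0.165 and 2.45 FPKM. ATP2A3, a calcium pump of the endoplasmic reticulum, was at 2.23 and 12.1 FPKM, while the muscle pump ATP2A1 was at 9.71 and 4.47 FPKM. ATP2B1, a plasma membrane calcium pump, was at 7.92 and 19.5 FPKM, so calcium pump genes differed in both directions.

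TRP channel partners numbered 21 at 1 FPKM or more, of which 3 were lower and 3 were higher, with a median of 0.25. PLCB1, a phospholipase C that acts upstream of TRPC channels, was at 79.0 FPKM in AS WT against 17.0 FPKM in AS STRAP KO, and PLCG2, of the same enzyme family, was at 0.822 and 3.69 FPKM. MARCKS, which binds the membrane lipid that phospholipase C cleaves, was at 38.5 and 11.1 FPKM. INAVA, counted in this list although a link of its product to TRP channels was not tested, was at 0.0194 and 1.38 FPKM. The lipid-signalling genes thus differed in both directions.

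Of 18 other cation channel genes, 5 were lower and 2 were higher, with a median of -0.21. The acid-sensing channel gene ASIC3 was at 42.2 FPKM in AS WT against 18.6 FPKM in AS STRAP KO, and ASIC2 was at 1.87 FPKM and listed at 0. SCNN1A, the alpha subunit of the epithelial sodium channel, was at 19.2 and 5.70 FPKM. MCOLN3, a lysosomal relative of the TRP channels, was higher, at 0.713 and 4.79 FPKM.

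Of 19 other chloride channel genes, 0 were lower and 3 were higher, with a median of 0.13. CLIC6 was at 0.390 FPKM in AS WT against 7.57 FPKM in AS STRAP KO, and CLIC3 was at 1.44 and 4.33 FPKM. ANO1, the calcium-activated chloride channel, was at 0.230 and 1.16 FPKM. No gene of this list shared the direction of CLCN6 at 2-fold or more. OSTM1, the subunit that CLCN7 protein needs in lysosomes, was at 13.2 and 16.9 FPKM, within 2-fold as CLCN7 was. REST is a repressor of neuronal genes, sodium channel genes among them. Of 11 genes of the REST complex, 0 were beyond 2-fold, with a median of 0.24, and REST itself was at 5.24 and 8.16 FPKM. None of the list medians was beyond 0.25 on the log2 scale, beside 0.00 for all rows.

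**Figure D4:**
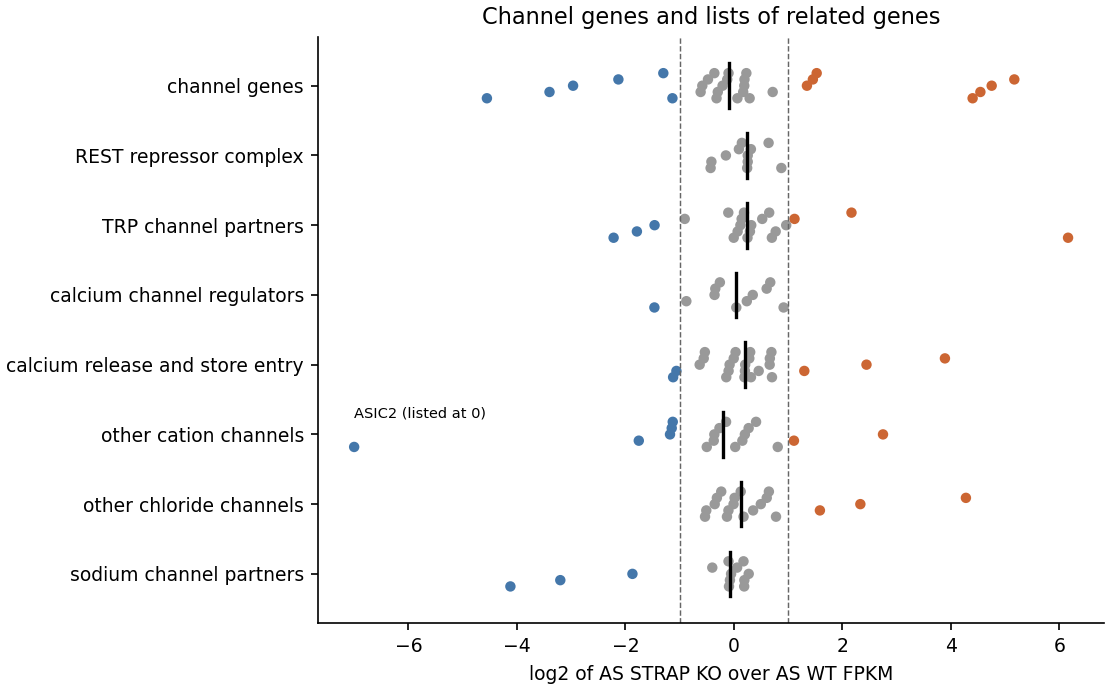
Log2 ratio of AS STRAP KO over AS WT FPKM for the 29 channel genes and for the genes with at least 1 FPKM in each of the 7 lists, with 1 point per gene, blue at least 2-fold lower, orange at least 2-fold higher, and the median as a bar. Dashed lines mark 2-fold, and ASIC2, listed at 0 in AS STRAP KO, has no finite ratio and is drawn at the left edge. Channel genes extend from -4.55 to 5.17, all genes of the REST complex lie within the dashed lines, and the list medians lie between -0.21 and 0.25.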

How the data were processed

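RNA-seq was carried out on 1 AS WT and 1 AS STRAP KO library. Per the methods and the labels, poly A selected RNA was sequenced as strand-specific single-end libraries of 75 bp reads, aligned to GRCh38 with STAR and assembled with Cufflinks. Cufflinks 2.2.1, STAR 2.7.6, bcl2fastq 2.18.0.12 and Cuffdiff are listed in the submitters' processing notes, while the methods name a different STAR release. The authors deposited FPKM, a unit scaled to transcript length and to library size. Whether the libraries were also scaled to each other was not tested. The sources used here do not say how replicates, if any, entered the single column per condition. The results of Cuffdiff were not used.

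The members and gene lists were chosen with earlier results of these data known. The rule that picked the members used symbols only, not levels or ratios. From the deposited FPKM, plain ratios of AS STRAP KO to AS WT were computed with Python 3.11.15 and pandas 2.3.3. Rows that reached 1 FPKM in either library were counted, and a ratio of 0.5 or less or of 2 or more was called lower or higher, a 0 in a single library included. No test was possible between single libraries. The counting and median steps were tested on simulated data.

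Genes were named by a rule: STRAP, every channel gene with at least 1 FPKM, other channel genes with at least 0.1 FPKM beyond 2-fold, and from each list up to 4 genes with at least 1 FPKM and the largest ratios beyond 2-fold. Some genes that the rule selects are not reported here by name, although they enter counts, sums and medians. Channel genes outside this rule, OSTM1, REST, the neighbouring genes and the markers were named as context after their values were seen. Read numbers were derived from single-transcript genes of 1500 bases or more with a mean fragment length of 200 bases, for which 94.8% of 368 values in AS WT and 93.8% of 320 values in AS STRAP KO between 1 and 5 reads lay within 0.1 of a whole read. Intervals are 95% conditional binomial intervals (Clopper-Pearson, SciPy 1.17.1) on these estimates. Coordinates and canonical transcript lengths are from GENCODE release 44 on GRCh38. Alternatives were pseudocounts of 1 and 0.1 FPKM, 4 filters on low values, 4 scalings and 2 treatments of rows, and the omission of the pseudogene CLCN3P1 was added after seeing the data.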

Additional observations from a re-analysis of the deposited data

How the results depend on the processing

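The medians near 0 changed sign with the filter or the choice of rows. That of all channel genes, -0.10, was 0.06 where both libraries had to reach 1 FPKM or in rows of 1 symbol, and 0.04 from 5 FPKM. That of calcium channel genes, 0.06, was -0.13 where both had to reach 1 FPKM or in rows of 1 symbol. The 13 channel genes beyond 2-fold stayed so under every scaling, and 3 of them, CACNA1G, CACNG8 and TRPV3, were within 2-fold with 1 FPKM added. The median of the sodium channel genes rested on 3 genes and was -1.77 and -2.76 with 1 and 0.1 FPKM added, -0.10 where both libraries had to reach 1 FPKM, where 1 had to reach 5 FPKM or with no filter, -0.14 from 0.3 FPKM and -0.081 in TPM. Lower channel genes numbered 1 with at least 1 FPKM in both libraries or at least 5 FPKM in 1, and 14 with no filter, and higher ones 3, 3 and 19. With no filter the median over all channel genes was 0.17 and that of calcium channel genes 0.29, which was -0.58 from 5 FPKM. The median of TRP genes was 1.46 in rows of 1 symbol. The cause was not tested, beyond the different genes that each filter admits. Over all rows, lower and higher rows numbered 866 and 719 with 1 FPKM added, 680 and 577 with at least 1 FPKM in both libraries, 2646 and 1841 from 0.3 FPKM, 642 and 564 from 5 FPKM, and 5990 and 4110 with no filter, against 1434 and 1124. In TPM the median of all rows was 0.11, with 1501 lower and 1597 higher of 14473 rows and 7 lower and 8 higher of 32 channel genes. No paired analysis was possible because each condition had 1 library. With 1 library per condition neither clone-to-clone nor culture-to-culture spread is known, and levels under 0.1 FPKM rest on few reads.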

Other observations

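CACNA1G-AS1, which overlaps the start of CACNA1G on the opposite strand, was at 0.457 FPKM in AS WT and listed at 0 in AS STRAP KO, the library in which CACNA1G was lower. WDR48 overlaps the start of SCN11A on the opposite strand and was at 11.7 FPKM in AS WT against 11.6 FPKM in AS STRAP KO, so the lower SCN11A level was not shared by the gene beside its start.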
